A study of Mus musculus with 7 samples.

Results

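The 10 genes described here belong to the leukaemia inhibitory factor (LIF) receptor and STAT3 pathway and were followed across mouse pluripotent cells and fibroblasts with and without Nanog. They were chosen by symbol, as a list of the pathway's ligand, receptors, kinase, transcription factor and targets: Lif, Lifr, Il6st, Osmr, Jak1, Stat3, Socs3, Pim1, Pim3 and Bcl3. All 10 of 10 were measured, among 22180 genes in all, each by its brightest probe set on average. RNA came from 7 samples of strain 129, hybridised to 1 single-colour Affymetrix array each. The groups were Nanog KO iPSC (2 arrays), WT iPSC (2 arrays), WT ESC (1 array), Nanog KO MEF (1 array) and WT MEF (1 array). Induced pluripotent stem cells (iPSC) are somatic cells returned to a state like that of embryonic stem cells (ESC), and MEF are fibroblasts from mouse embryos. All cells were harvested with trypsin. The labels give ESC, 2i/LIF and MEF media without assigning one to a sample, so an unequal supply of LIF and the genotype cannot be told apart. They also leave unstated the Nanog allele, the reprogramming factors and whether the replicate iPSC arrays are separate lines, so the p-values below measure the spread between these samples only.

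LIF is a cytokine of the interleukin-6 family. It binds LIFR, which pairs with the shared subunit gp130 (Il6st), and the JAK kinases bound to the receptor phosphorylate STAT3, which enters the nucleus and activates transcription. In mouse ESC this route sustains self-renewal, and Socs3, Pim1, Pim3 and Bcl3 are among the genes known to respond to it. Nanog encodes a homeodomain protein of the same self-renewal circuitry that, when supplied in excess, lets mouse ESC self-renew without LIF.

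Values are log2 intensities unless stated otherwise. A probe set's intensity depends on its own sequence, so levels were compared between arrays and not between genes. Background was judged on each array from 1374 genes of olfactory and vomeronasal receptors, and the level that 95% of them did not exceed served as a yardstick, lying between 6.30 and 6.49. Nanog itself stood at 7.50 and 7.44 in the KO iPSC arrays, against 12.84 and 12.76 in WT iPSC and 12.73 in WT ESC, and at 6.42 in KO MEF and 6.53 in WT MEF. Whether its probe set lies in the deleted part is not given. Of 14 pluripotency markers 13 or 14 lay above the yardstick on each iPSC and ESC array, against 4 or 5 on the MEF arrays. The median of these markers was 10.21 and 10.36 in KO iPSC, against 11.22 and 11.38 in WT iPSC and 11.24 in WT ESC. Of the 14, 4 were lower in KO iPSC than in WT pluripotent cells in limma (Fgf4 -2.18, Lin28a -1.85, Utf1 -1.18 and Tdgf1 -0.48) and 0 were higher, and the part of this difference in the pathway values was not tested. The replicate WT iPSC arrays stood apart from each other: the median of 23 fibroblast markers was 9.39 in replicate 1 and 7.48 in replicate 2, beside 7.36 and 7.17 in KO iPSC, 8.26 in WT ESC, 12.19 in KO MEF and 11.28 in WT MEF.

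The promoter of Socs3, whose product feeds back on gp130, is shown because it was the one promoter of the 10 genes that held a palindrome bound by STAT proteins, TTCNNNGAA (which reads the same on both strands). RefSeq gives 12 promoter windows of 300 bases for the 10 genes in the build GRCm38.p6, from 250 bases before to 50 after each annotated start. The motif was in 1 of these 12 windows (8.33%) and in 2726 of all 32851 promoter windows of the same length (8.30%), so its frequency was that of promoters at large. In Socs3 it began at position -154 from the start. The promoter of Bcl3, the called member with the largest difference between KO and WT, held no such match. Both are given 5′ to 3′ on the strand of the gene, up to the start, with the fixed bases of the motif in capitals.
Socs3 (chr11:117969367-117969616, minus strand): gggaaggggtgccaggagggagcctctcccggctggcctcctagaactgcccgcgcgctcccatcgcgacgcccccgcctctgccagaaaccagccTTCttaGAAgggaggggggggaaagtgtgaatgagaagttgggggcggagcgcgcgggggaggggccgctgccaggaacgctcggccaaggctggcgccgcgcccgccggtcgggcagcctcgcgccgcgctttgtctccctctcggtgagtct
Bcl3 (chr7:19822756-19823005, minus strand): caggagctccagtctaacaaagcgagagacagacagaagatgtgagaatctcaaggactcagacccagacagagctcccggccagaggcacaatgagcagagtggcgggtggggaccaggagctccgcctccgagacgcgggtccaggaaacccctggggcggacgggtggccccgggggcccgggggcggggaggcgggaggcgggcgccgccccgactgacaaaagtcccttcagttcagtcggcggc

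**Figure D1:**
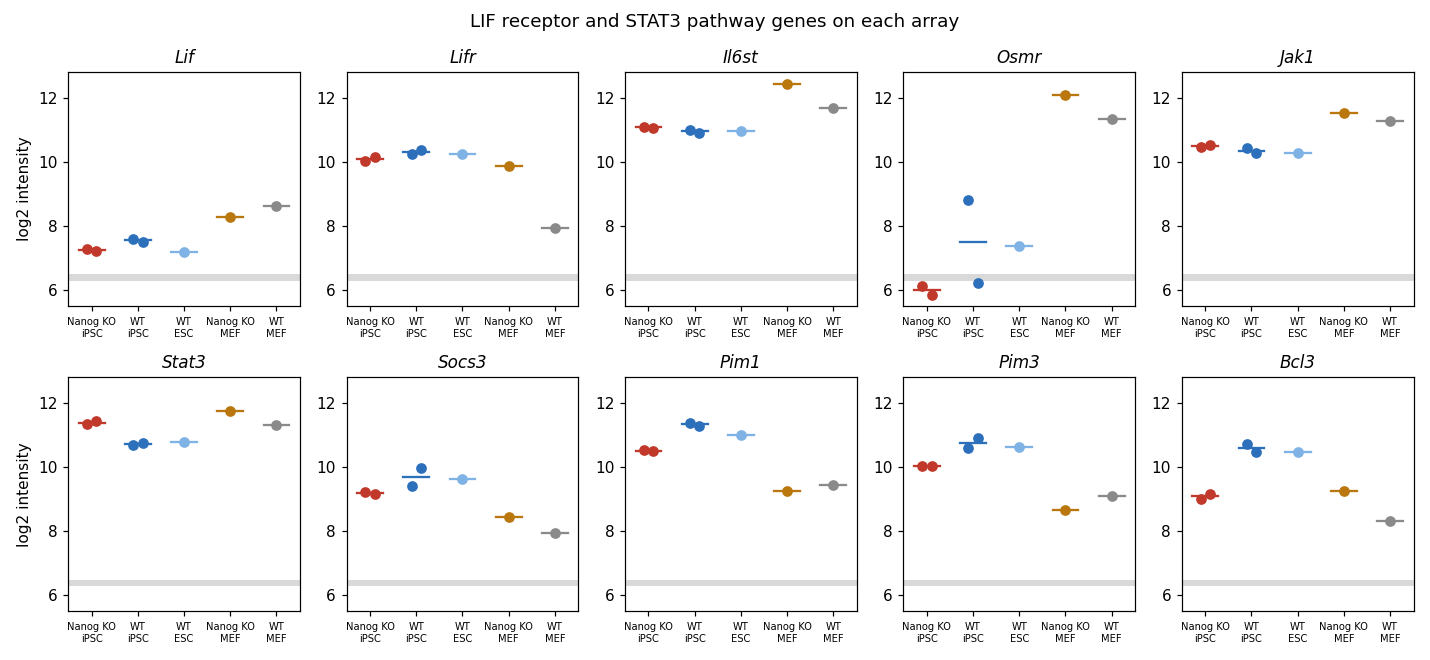
Log2 intensity (vertical axis) of the 10 pathway genes in Nanog KO iPSC, WT iPSC, WT ESC, Nanog KO MEF and WT MEF. Each point is 1 array, each bar a group mean, and the grey band spans the background yardsticks (6.30 to 6.49). Stat3 is higher in KO iPSC than in WT iPSC and WT ESC, while Pim1, Pim3 and Bcl3 are lower, and Osmr spreads from 6.21 to 8.81 between the WT iPSC arrays.

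Comparing Nanog KO iPSC with the WT pluripotent cells (WT iPSC and WT ESC together) is the contrast the series names. Stat3 rose while 3 genes known to respond to STAT3 fell: Bcl3 by 2.78-fold, Pim1 by 1.64-fold and Pim3 by 1.59-fold. The ligand, the receptor subunits and the kinase gave no call. In limma (2 arrays against 3, 3 residual degrees of freedom, adjusted p under 0.05 over all genes), 1 of the 10 genes was higher and 3 were lower, beside 6.89% of all genes higher and 8.81% lower. The KO arrays lay wholly outside the range of the 3 WT arrays in 9 of the 10 genes, Lif being the exception, but 51.6% of all genes did so as well. The median difference was -0.34 over the 10 genes and 0.03 over all genes.

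STAT3, the transcription factor that carries the signal to the nucleus, had Stat3 transcript levels of 11.33 and 11.44 in KO iPSC, against 10.70 and 10.74 in WT iPSC and 10.78 in WT ESC. Both KO arrays were above every WT array, and the 3 WT arrays lay within 0.08 of each other. The difference was 0.65 (SE 0.08, 1.56-fold, adjusted p = 0.0067).

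BCL3, an atypical IκB protein that acts as a nuclear cofactor of NF-κB, showed the largest called difference. Bcl3 stood at 9.003 and 9.16 in KO iPSC, against 10.73 and 10.46 in WT iPSC and 10.48 in WT ESC. In intensity units these were 513 and 574 in KO iPSC, against 1700 and 1409 in WT iPSC and 1430 in WT ESC. The groups did not overlap, and the difference was -1.47 (SE 0.12, adjusted p = 0.0019).

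PIM1 and PIM3 are serine/threonine kinases of 1 family that promote survival and growth. Pim1 stood at 10.52 and 10.51 in KO iPSC, against 11.38 and 11.29 in WT iPSC and 11.01 in WT ESC, a difference of -0.71 (SE 0.13, adjusted p = 0.018). Pim3 stood at 10.02 and 10.05 in KO iPSC, against 10.58 and 10.91 in WT iPSC and 10.61 in WT ESC, a difference of -0.67 (SE 0.12, adjusted p = 0.019). For both kinases the KO arrays nearly coincided and lay below all 3 WT arrays. The KO iPSC arrays were close over all genes, with 4 genes over 2-fold apart, against 350 between the WT iPSC arrays. A dimmer probe set of Pim1 ran from 7.02 to 7.24 over the 5 pluripotent arrays, and with the mean of both probe sets the Pim1 difference was -0.39 (adjusted p = 0.062). The related kinase Pim2, outside the 10 genes, stood at 8.61 and 8.74 in KO iPSC, against 9.35 and 9.54 in WT iPSC and 10.44 in WT ESC, and was called against WT iPSC alone (-0.77, adjusted p = 0.012).

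SOCS3, the inhibitor that binds gp130 and JAK and ends the signal, did not pass. Socs3 stood at 9.21 and 9.16 in KO iPSC, against 9.40 and 9.97 in WT iPSC and 9.61 in WT ESC. The KO arrays were the lowest of the 5, and the WT iPSC replicates differed by 0.57, more than the gap to the KO arrays. The difference was -0.48 (SE 0.17, adjusted p = 0.12), and without WT iPSC replicate 1 it was -0.61 (adjusted p = 0.043). Its second probe set stood at 6.72 and 7.09 in KO iPSC, against 7.32 and 8.24 in WT iPSC and 8.02 in WT ESC, again with no overlap.

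Upstream of STAT3, Lifr, the subunit that binds LIF, stood at 10.03 and 10.15 in KO iPSC, against 10.26 and 10.36 in WT iPSC and 10.23 in WT ESC (difference -0.19, SE 0.09, adjusted p = 0.20). Il6st, the signal-transducing subunit, stood at 11.08 and 11.06 in KO iPSC, against 10.99 and 10.90 in WT iPSC and 10.96 in WT ESC (0.12, SE 0.08, adjusted p = 0.33). The KO arrays lay below all WT arrays for Lifr and above them for Il6st, and limma called neither. Jak1, a kinase bound to gp130, stood at 10.46 and 10.51 in KO iPSC, against 10.44 and 10.26 in WT iPSC and 10.26 in WT ESC (0.17, SE 0.09, adjusted p = 0.28). Lif, the ligand, stood at 7.30 and 7.21 in KO iPSC, against 7.60 and 7.51 in WT iPSC and 7.20 in WT ESC (-0.18, SE 0.14, adjusted p = 0.41). Lif was the single member whose groups overlapped, since WT ESC lay at the level of the KO arrays.

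Osmr, the receptor subunit for oncostatin M, behaved unlike the others. It stood at 6.14 and 5.85 in KO iPSC, against 8.81 and 6.21 in WT iPSC and 7.38 in WT ESC. Both KO arrays and WT iPSC replicate 2 lay below their background yardsticks, and the 2 WT iPSC arrays were 2.61 apart, so the difference of -1.47 (SE 0.71) did not pass (adjusted p = 0.22). Its level followed the fibroblast markers, which were high in the same WT arrays. Of 23 measured fibroblast markers 17 and 18 lay above the yardstick in KO iPSC, 21 and 16 in WT iPSC and 20 in WT ESC. Their summed intensity was 18281 to 18293 in KO iPSC, 22587 to 41276 in WT iPSC, 26878 in WT ESC, 117772 in KO MEF and 90927 in WT MEF. The part of fibroblast RNA in the Osmr values was not tested, and in such bulk samples fewer cells of a type and less RNA per cell cannot be told apart.

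**Figure D2:**
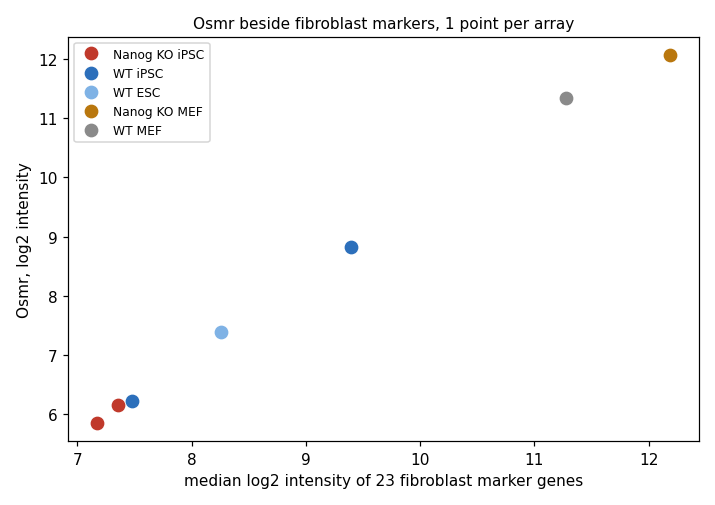
Osmr log2 intensity (vertical axis) against the median log2 intensity of 23 fibroblast marker genes (horizontal axis), 1 point per array, coloured by group. The arrays fall in the same order on both axes, with KO iPSC at 6.14 and 5.85, WT iPSC at 8.81 and 6.21, and the MEF arrays at the top.

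In both MEF arrays Bcl3, Pim1 and Pim3 lay below each WT pluripotent array, as did Socs3 and Lifr, whereas Stat3, Jak1, Il6st, Osmr and Lif lay above. How many of all genes were separated in this way was not counted, so the separation is not shown to be particular to the pathway. The 51.6% of all genes given above is for KO iPSC against WT pluripotent arrays and is no background for the MEF arrays. Without WT iPSC replicate 1, Stat3, Bcl3, Pim1 and Pim3 kept their calls, and without replicate 2 Pim1 did not pass (adjusted p = 0.061). Immediate early genes respond within minutes to stimulation or handling. In limma 10 of 14 were called higher in KO iPSC than in WT pluripotent cells and 0 lower, beside 6.89% and 8.81% of all genes. The differences of the 14 ran from 0.027 to 3.04, so each had the higher mean in KO iPSC. Their list medians were 10.54 and 10.63 in KO iPSC, 9.09 and 8.36 in WT iPSC and 9.89 in WT ESC. Their part in the STAT3 pathway values was not tested.

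The calls for Stat3, Pim1 and Pim3 needed both KO arrays. With KO iPSC replicate 1 or 2 left out, or both KO arrays counted as 1, 1 of the 10 genes passed in place of 4, and that gene was Bcl3 each time (highest adjusted p = 0.044). Over all 12 alternative settings Stat3 ran from 0.59 to 0.70, Bcl3 from -1.55 to -1.39, Pim3 from -0.73 to -0.57 and Pim1 from -0.82 to -0.39, its smallest difference being that with the mean of its probe sets.

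When the cell type was held fixed, Nanog KO iPSC against WT iPSC gave the same 4 calls on the same KO arrays (limma on all 7 arrays, 2 residual degrees of freedom). Bcl3 fell by 1.51 on the log2 scale (SE 0.13, adjusted p = 0.0036), Pim1 by 0.82 (SE 0.09, adjusted p = 0.0059) and Pim3 by 0.71 (SE 0.13, adjusted p = 0.025), and Stat3 rose by 0.66 (SE 0.09, adjusted p = 0.011). Over all genes 6.93% were higher and 9.55% lower. Socs3 (-0.50, adjusted p = 0.16), Lif (-0.30, adjusted p = 0.091) and Lifr (-0.22, adjusted p = 0.20) did not pass. Without WT iPSC replicate 2, Osmr differed by -2.82, and without WT iPSC replicate 1 by -0.21, so its value was set by 1 array. Each of these fits kept 1 WT iPSC array and so held no spread between WT iPSC arrays.

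**Figure D3:**
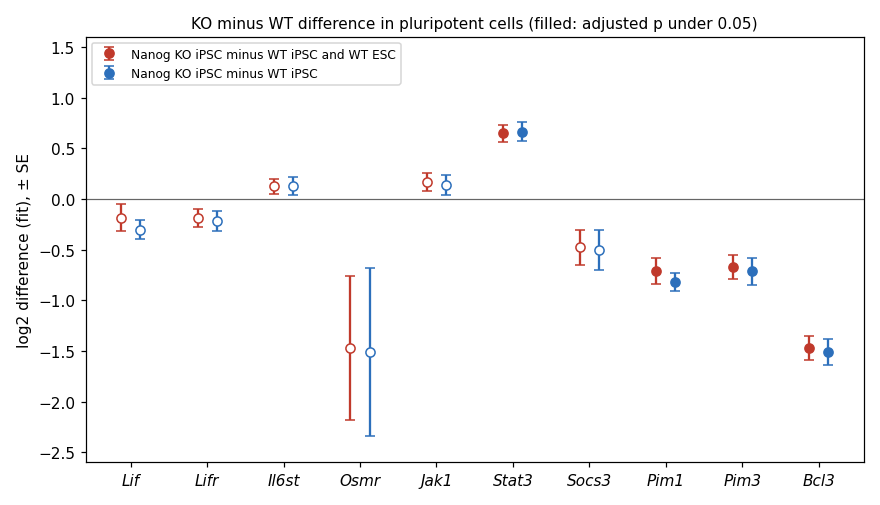
Fitted log2 difference with its standard error (vertical axis) for the 10 pathway genes, for Nanog KO iPSC minus all WT pluripotent arrays (red) and minus WT iPSC alone (blue). Filled points had an adjusted p under 0.05: Stat3 is above 0, Pim1, Pim3 and Bcl3 are below 0, and the widest error bars belong to Osmr.

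The WT pluripotent cells were also compared with each other. WT ESC against WT iPSC gave 0 of 10 calls in limma, beside 0.162% of all genes called. An unadjusted p under 0.05 was reached by 2 of the 10, beside 1387 of all 22180 genes higher and 1317 lower. Those 2 were Lif (-0.36, SE 0.11) and Pim1 (-0.32, SE 0.11), both lower in WT ESC. Stat3 differed by 0.05 (SE 0.11) and Bcl3 by -0.11 (SE 0.16). WT ESC is 1 array and was assumed to vary like the iPSC groups.

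The pathway around these genes was read from 7 further lists, of which 79 of 90 genes were measured. In Nanog KO iPSC against WT pluripotent cells 10 of the 79 were higher and 12 lower. Over all genes 6.89% were higher and 8.81% lower, shares that also apply to the counts of single lists below. The median difference was 0.03 in the 79 genes and 0.03 in all genes. Calls went in both directions in 4 of the 7 lists. Of 8 measured ligands of the interleukin-6 family 0 passed in limma. An unadjusted p under 0.05 was reached by 2 of these 8, beside 3429 of all 22180 genes higher and 3563 lower. Of 4 further receptor genes 1 fell, Il27ra (-0.48), the receptor for interleukin-27. Il6ra, the interleukin-6 receptor, stood at 8.75 and 8.82 in KO iPSC, against 8.73 and 7.75 in WT iPSC and 7.30 in WT ESC, with a wide spread in WT (adjusted p = 0.21).

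Among 7 other JAK and STAT genes, Jak2 rose and Stat4 fell. Jak2 stood at 8.46 and 8.48 in KO iPSC, against 7.93 and 7.93 in WT iPSC and 7.83 in WT ESC (0.57, SE 0.08, adjusted p = 0.0088). Stat4, which mediates interleukin-12 signals in lymphocytes, stood at 7.51 and 7.55 in KO iPSC, against 8.49 and 9.13 in WT iPSC and 9.94 in WT ESC (-1.66, SE 0.40, adjusted p = 0.044). The WT arrays spread over 1.45 for Stat4, yet all 3 lay above the KO arrays. Of 16 negative regulators Socs4 rose (0.49) and the phosphatases Ptpn6 (-0.66) and Ptpn1 (-0.46) fell, while 13 gave no call, including Socs1, Socs2 and Cish.

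Known STAT3 targets formed a pair of lists. Of 8 targets tied to pluripotency 0 passed in limma. An unadjusted p under 0.05 was reached by 4 of the 8, beside 3429 of all 22180 genes higher and 3563 lower. Klf4, a reprogramming factor, stood at 11.60 and 11.56 in KO iPSC, against 11.56 and 11.31 in WT iPSC and 11.34 in WT ESC. Tfcp2l1, through which STAT3 supports self-renewal in mouse ESC, stood at 12.72 and 12.59 in KO iPSC, against 12.19 and 12.12 in WT iPSC and 11.48 in WT ESC. Its KO levels were the highest of the 5, and it was called against WT iPSC alone (0.50, adjusted p = 0.027), where Myc fell (-0.96, adjusted p = 0.0044).

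Of 23 general targets, many of which respond to other signals as well, 5 rose and 6 fell, beside 6.89% and 8.81% of all genes. Zfp36, an RNA-binding protein that destabilises cytokine transcripts, rose 4.06-fold and Nfkbiz, a nuclear IκB protein, 1.86-fold. Tnfrsf12a (0.64) and the signalling inhibitor Spry2 (0.61) rose as well. Cyclin Ccnd1 fell 2.94-fold, Ly6e by 1.38 on the log2 scale, the adhesion molecule Icam1 2.58-fold, Gadd45g 2.56-fold and the growth factor Vegfa 2.51-fold. Gadd45g stood at 6.32 and 6.57 in KO iPSC, beside yardsticks of 6.49 and 6.44, so its fold rests on values near background. In the PI3K and ERK branch of LIF signalling 3 of 13 genes rose and 2 fell. The PI3K regulatory subunit Pik3r1 rose 2.56-fold, at 10.43 and 10.40 in KO iPSC, against 9.16 and 9.03 in WT iPSC and 8.98 in WT ESC (adjusted p = 0.0011), and the exchange factor Sos2 rose by 0.81.

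**Figure D4:**
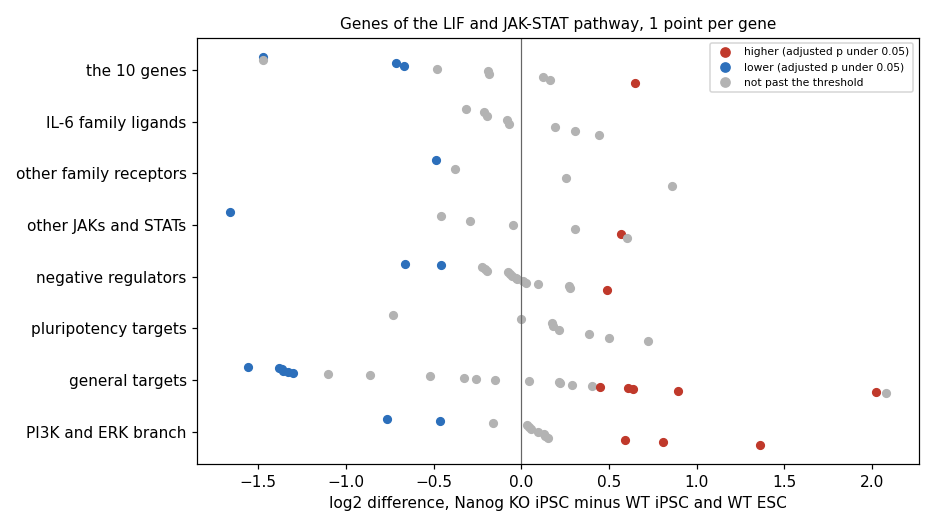
Log2 difference of Nanog KO iPSC minus all WT pluripotent arrays (horizontal axis), 1 point per gene, for the 10 genes and 7 further lists of the pathway (rows). Red points were higher and blue points lower at an adjusted p under 0.05. Of the 79 listed genes 10 were higher and 12 lower, beside 6.89% and 8.81% of all genes, with both directions in 4 of the 7 lists.

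iPSC were set against MEF with genotype as a covariate, to place the 10 genes between the cell types. The feedback inhibitor and the kinases were higher in iPSC: Pim1 3.01-fold (1.59, SE 0.16, adjusted p = 0.0022), Pim3 2.85-fold (1.51, SE 0.13, adjusted p = 0.0015) and Socs3 2.36-fold (1.24, SE 0.28, adjusted p = 0.024). Osmr (-4.95, SE 0.85, adjusted p = 0.010), Lif (-1.06, SE 0.08, adjusted p = 0.0013), Il6st (-1.03, SE 0.16, adjusted p = 0.0070), Jak1 (-0.98, SE 0.10, adjusted p = 0.0020) and Stat3 (-0.48, SE 0.10, adjusted p = 0.017) were lower in iPSC. So 3 of the 10 genes rose and 5 fell, beside 30.7% of all genes called in either direction. For Stat3 the cell types overlapped, as KO iPSC (11.33 and 11.44) lay above WT MEF (11.31). Socs3 lost its call under 5 of 13 alternatives (highest adjusted p = 0.072), Stat3 under 3 (0.068) and Osmr with the WT arrays alone (0.075).

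Lifr and Bcl3 gave no call between iPSC and MEF, and the 2 MEF arrays differed for both. Lifr stood at 10.03 and 10.15 in KO iPSC and 10.26 and 10.36 in WT iPSC, against 9.87 in KO MEF and 7.92 in WT MEF. Bcl3 stood at 9.003 and 9.16 in KO iPSC and 10.73 and 10.46 in WT iPSC, against 9.25 in KO MEF and 8.31 in WT MEF. Without the KO MEF array Lifr was higher in iPSC by 2.38 and Bcl3 by 2.29, and without the WT MEF array Lifr differed by 0.22 and Bcl3 by -0.16. These fits held no spread between MEF arrays, so they do not test whether the differences would recur.

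Of the 79 further genes, 20 were higher and 24 lower in iPSC, beside 3540 higher and 3262 lower of all 22180 genes. Of the 8 pluripotency targets 7 rose, led by Tfcp2l1 (5.51) and Sall4 (4.17), and Myc fell (-1.35). Stat4 was at least 3.40-fold higher in iPSC, as both MEF arrays lay below background, while Stat6 (-2.17), Jak2 (-1.74) and Stat5b (-1.55) fell. The largest fall in the lists was that of Gadd45g (-3.09), a stress-response gene, followed by Gab2. The adaptor Gab1 rose by 2.21 and its relative Gab2 fell by 2.65 on the log2 scale.

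KO and WT MEF gave 1 array each, so their differences carry no test. Lifr was 3.85-fold higher in KO MEF (9.87 against 7.92 in WT MEF), the 1 member of the 10 to differ at least 2-fold, beside 4.56% of all genes. Bcl3 (9.25 against 8.31), Il6st (12.42 against 11.67) and Osmr (12.07 against 11.34) also had the higher value in KO MEF. So did Socs3 (8.45 against 7.94), Stat3 (11.75 against 11.31) and Jak1 (11.53 against 11.26). Pim3 (8.65 against 9.10), Lif (8.29 against 8.63) and Pim1 (9.24 against 9.43) had the higher value in WT MEF. The fibroblast markers had the higher value in KO MEF in 21 of 23 cases, with a median difference of 0.38, and 8 of them differed at least 2-fold. The differences ran from -0.055 for Acta2 to 5.51 for Lum, with Lum at 10.60 in KO MEF and 5.09 in WT MEF and Dcn at 12.19 in KO MEF and 7.99 in WT MEF. Of 10 macrophage markers 9 had the lower value in KO MEF, with a median difference of -0.69 and the widest gap in Lyz2 (8.31 in KO MEF and 10.42 in WT MEF). The part of such differences in the cells' makeup in the Lifr value was not tested.

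The difference between the genotype effects was tested as an interaction of genotype with cell type, in which the MEF groups of 1 array are assumed to vary like iPSC. Its SE and p hold no measure of the spread between MEF samples, so they do not test whether the MEF difference would recur. Bcl3 differed by -1.51 between KO and WT iPSC but by 0.94 between KO and WT MEF, an interaction of -2.45 (SE 0.22, adjusted p = 0.0090). Lifr differed by -0.22 in iPSC and by 1.95 in MEF, an interaction of -2.16 (SE 0.17, adjusted p = 0.0070). These were 2 of the 10 genes, both lower, beside 5.48% of all genes lower and 3.07% higher. Stat3 had the higher value in KO cells of both types (0.66 in iPSC, 0.44 in MEF, interaction 0.23, SE 0.16, adjusted p = 0.44), and Pim3 had the lower value in KO cells of both types (-0.71 and -0.44, interaction -0.27, SE 0.23, adjusted p = 0.52). Without KO iPSC replicate 1 neither Lifr (adjusted p = 0.057) nor Bcl3 (0.058) passed, and without replicate 2 Bcl3 did not (0.053). Fits without WT iPSC replicate 1 or without replicate 2 kept 1 WT iPSC array, and their spread came from the KO iPSC pair alone. Over all 10 alternative settings the interaction ran from -2.23 to -2.09 for Lifr and from -2.59 to -2.32 for Bcl3.

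**Figure D5:**
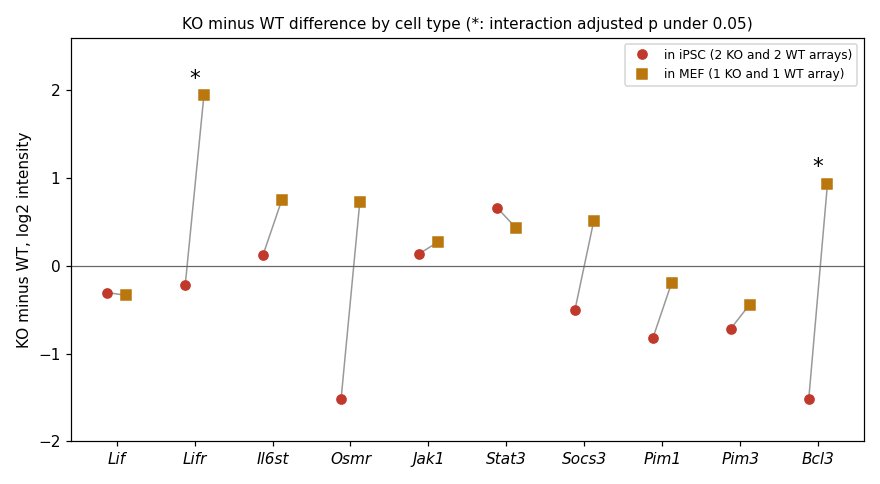
Difference of KO minus WT in log2 intensity (vertical axis) for the 10 pathway genes, in iPSC (circles, 2 KO and 2 WT arrays) and in MEF (squares, 1 KO and 1 WT array). A star marks an interaction with an adjusted p under 0.05, reached by Lifr (-0.22 in iPSC, 1.95 in MEF) and Bcl3 (-1.51 in iPSC, 0.94 in MEF).

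The order of the group levels differed among the members. Socs3 and Lifr descended in the same order from WT iPSC through WT ESC, KO iPSC and KO MEF to WT MEF, although WT ESC lay between the WT iPSC replicates for Socs3. Pim1 and Pim3 had the same first 3 groups with the MEF arrays in the other order. For Pim3 too, WT ESC (10.61) lay between the WT iPSC replicates (10.58 and 10.91). For Stat3 the order was KO MEF, KO iPSC, WT MEF, WT ESC and WT iPSC. Here KO iPSC (11.33 and 11.44) and WT MEF (11.31) did not differ beyond the spread of the KO iPSC arrays, nor did WT ESC and WT iPSC differ by more than 0.08.

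Among 6942 genes above background on at least 1 array and ranging over at least 1 on the log2 scale, the 3 most like each of 4 members were taken by Pearson correlation over the 7 arrays, which share their cell types and genotypes. For Stat3 these were Npc2 (r = 0.992), Rragc (0.990) and Slc17a5 (0.989), and for Lifr they were Hvcn1 (0.988), Tm7sf3 (0.979) and Tbl1xr1 (0.976). For Socs3 they were Cadm1 (0.993), Zfp157 (0.991) and Sorl1 (0.989). For Osmr they were Pappa (0.998), Oaf (0.998) and Inpp1 (0.997).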

How the data were processed

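The deposited values are probe set intensity values on a linear scale (9.67 to 13043), which the authors made by RMA in Affymetrix Expression Console (version 1.3.0.187), per the submitters' processing notes. The genome build and annotation behind them are not given in the sources used here. Log2 was taken with no further normalization, and 0 columns lay outside the 7 samples. Of 33649 probe sets the platform annotation covers 25335, leaving 8314 unnamed, and gives 1 symbol for 23521 and more than that for 1814. Probe sets with 1 symbol gave 22180 genes, the highest mean standing for a gene with several (1082 genes, among them Socs3 and Pim1). Arrays carry no depth of sequencing, and their small number limits precision.

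Genes were tested with limma (version 3.58.1, R version 4.3.3, functions lmFit and eBayes, two-sided, Benjamini-Hochberg over all 22180 genes, threshold 0.05), tested on simulated data first. SE is that of the fit. "At least" folds are against the mean yardstick of arrays that all lay below it. The 10 members, the lists and the comparisons were chosen with earlier results of these data known. Beyond the members, the text names up to 6 higher and 6 lower listed genes per comparison by size, and family members by level. Pim2, Jak2, Il27ra, Socs4, Ptpn6, Ptpn1, Klf4, Tfcp2l1, Myc, Stat5b, Fgf4, Lin28a, Utf1, Tdgf1, Acta2, Lum, Dcn and Lyz2 fall outside that rule for some values given and were named after their values were seen. Promoters are RefSeq's, and all 10 genes matched by symbol and gene identifier. Protein sequences were not used here. Alternatives covered scaling, the probe set rule, a pseudocount of 16, the variance model, a background filter, replicates left out and the replicate block.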

Additional observations from a re-analysis of the deposited data

Results flagged for a closer look

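The genotype difference of Lifr and of Bcl3 was set apart between iPSC and MEF by the interaction of genotype with cell type. For Lifr the interaction was -2.16 (SE 0.17, limma adjusted p = 0.0070), with KO minus WT at -0.22 in iPSC and 1.95 in MEF. For Bcl3 it was -2.45 (SE 0.22, limma adjusted p = 0.0090), with -1.51 in iPSC and 0.94 in MEF. Each MEF value rests on 1 KO and 1 WT array, so the SE and p hold no measure of the spread between MEF samples. Without KO iPSC replicate 1 neither gene passed (adjusted p = 0.057 for Lifr and 0.058 for Bcl3), and without replicate 2 Bcl3 did not (0.053).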

How the results depend on the processing

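Of 570 values of single members under alternative settings, 512 kept their direction and their side of the threshold, 29 lost and 18 gained a call, and 11 changed sign. Median centring, quantile normalization, the pseudocount and the background filter left the number of members called in each comparison as it was. Counting both KO iPSC arrays as 1 left 1 of 4 calls against WT pluripotent cells. With a trend and robust fitting, 4 members passed the interaction in place of 2. With 1 replicate left out, the members called ran from 1 to 5 against WT pluripotent cells (4 with all arrays), 1 to 5 against WT iPSC (4), 0 to 1 for WT ESC against WT iPSC (0), 6 to 10 for iPSC against MEF (8) and 0 to 6 for the interaction (2). Against WT iPSC, for WT ESC and for the interaction, leaving out a WT iPSC array left the spread to the KO iPSC pair alone. For iPSC against MEF, leaving out a MEF array left no spread between MEF arrays. The single call for WT ESC was Osmr without WT iPSC replicate 2 (-1.43), against 1.18 without replicate 1. Both compare 1 array with 1 array, so that call holds no spread of WT ESC or WT iPSC. Other sign changes in WT ESC against WT iPSC, none of them a call, came with a WT iPSC array left out. Without replicate 1 and without replicate 2, in turn, the values were 0.0019 and -0.18 for Jak1, 0.022 and -0.25 for Bcl3, 0.057 and -0.027 for Il6st, -0.35 and 0.21 for Socs3, and -0.29 and 0.030 for Pim3. The same comparison gave 0.086 for Socs3 with the mean of its probe sets. Bcl3 in iPSC against MEF was -0.16 without WT MEF and 2.29 without KO MEF, both alternatives chosen after seeing the data. Lif in the interaction was -0.032 with median centring, -0.012 when KO iPSC replicate 1 was dropped, 0.080 when WT iPSC replicate 1 was dropped and -0.015 when WT iPSC replicate 2 was dropped. The cause of these shifts was not tested.

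Over all genes the calls ran from 341 to 4167 with a replicate left out against WT pluripotent cells (3483 with all arrays, 365 with both KO arrays counted as 1), from 519 to 5979 against WT iPSC (3656), from 1 to 2289 for WT ESC (36), from 4405 to 7967 for iPSC against MEF (6802) and from 89 to 5016 for the interaction (1897). For WT ESC against WT iPSC they also ran from 23 to 95 under the other settings. The 79 further genes gave 3 to 27 calls against WT pluripotent cells with a replicate left out (22), 3 with both KO arrays counted as 1, 4 to 36 against WT iPSC (27), 0 to 14 for WT ESC (0), 29 to 52 for iPSC against MEF (44) and 1 to 31 for the interaction (12). With the replicate block, 4 members were called in KO against WT iPSC, as without it. The replicate numbers are not known to pair samples, and the replicate 1 minus 2 differences of KO and WT iPSC correlated at 0.017 over genes.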
